A study of Mus musculus with 2 samples.

Results

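The Bcl2 family genes described here are 8 rows of a deposited single-cell matrix of 15121 genes. They are 4 pro-survival members (Bcl2, Bcl2l1, Mcl1 and Bcl2a1b) and 4 pro-death members (Bcl2l11, Pmaip1, Bid and Bak1), taken by name as given. The cells are labelled as T cells of a syngeneic mouse melanoma model, called NILER in the labels, whose tumour line carries an Nras mutation and was exposed to ultraviolet light. Both libraries date from day 5. The untreated one serves as control, and the treated one is labelled with trametinib, which inhibits the kinase MEK, combined with the RAF inhibitor BGB-283. The labels give no strain, age, sort or number of animals, and do not say whether the untreated group received a vehicle. With 1 library per group there was no spread between animals and no test, and treatment cannot be told apart from anything else that differed between the libraries. All intervals below are exact 95% intervals that cover counting error only.

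Proteins of this family decide whether the outer membrane of the mitochondria stays closed. The pro-survival proteins BCL-2, BCL-XL, MCL-1 and A1 hold the pore-forming effectors BAK and BAX in check. The BH3-only proteins, among them BIM, NOXA and BID, bind the pro-survival proteins or activate the effectors, after which cytochrome c is released and caspases are cut. In T cells, BCL-2 kept up by interleukin 7 signals is known to sustain resting naive cells, and BIM is known for removing activated cells. MCL-1 is needed at most stages of T cell life. BIM is also controlled as a protein, since the kinase ERK, which MEK activates, phosphorylates it and speeds its turnover. RNA counts do not show this step.

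Because FoxO transcription factors are known to bind the Bcl2l11 promoter, the 250 bases before the annotated starts were searched for the FoxO core GTAAACA on both strands. The windows come from RefSeq on GRCm38.p6. Member starts on 1 chromosome were left out of the count, and 7 of the 8 members, without Pmaip1, were counted, with 10 starts. The motif was present in 1 of those 10 starts, and in 1040 of 32851 starts in the whole table (3.17%), from which no chromosome was left out. The windows of the first Bcl2l11 start, chr2:128125788-128126037 on the plus strand, and of Bcl2, chr1:106714291-106714540 on the minus strand, are shown because these 2 genes carry most of the results. Capitals mark the motif, which begins 227 bases before the Bcl2l11 start.
Bcl2l11: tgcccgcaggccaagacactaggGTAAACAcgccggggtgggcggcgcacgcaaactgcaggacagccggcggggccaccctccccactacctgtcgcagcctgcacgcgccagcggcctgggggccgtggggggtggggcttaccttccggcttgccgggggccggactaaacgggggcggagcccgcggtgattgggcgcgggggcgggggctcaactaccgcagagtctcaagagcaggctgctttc
Bcl2: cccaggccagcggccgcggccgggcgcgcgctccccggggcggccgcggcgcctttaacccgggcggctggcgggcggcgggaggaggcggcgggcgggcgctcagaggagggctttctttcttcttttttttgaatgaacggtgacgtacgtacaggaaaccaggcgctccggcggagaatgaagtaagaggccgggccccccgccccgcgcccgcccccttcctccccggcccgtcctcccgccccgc
These letters are not in the Bcl2 window or in that of a second Bcl2l11 start. A match describes the sequence and is not evidence of binding.

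The untreated library held 9312 cells and 95349992 unique molecular identifiers (UMIs), and the treated library 8078 cells and 58318786 UMIs. Median depth was 6155 and 5987.5 UMIs per cell, 35 cell barcodes were present in both libraries, and 8671 and 7355 cells passed the filters. T cells were gated by UMIs. CD8 naive-state cells had Cd8a or Cd8b1, no Pdcd1, and at least 2 genes of a naive T cell marker set that includes Ccr7, Lef1 and Tcf7 (2663 untreated and 670 treated cells). CD8 Pdcd1>0 cells, which have RNA of the receptor PD-1 (1091 and 3077), CD4 cells without Foxp3 (913 and 484) and Foxp3>0 cells, the gate for regulatory T cells (487 and 419), made up the other classes. Levels are CPM, the UMIs of a gene per 1000000 UMIs of its class, over totals of 2433836 to 23946306 UMIs. UMIs count molecules captured at their 3' end and are not scaled to length, so capture may differ between genes.

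The naive-state gate fixes the presence of its own markers, so Ccr7 (319 untreated and 362 treated CPM), Lef1 (328.5 and 297) and Tcf7 (300.5 and 328) are given as a description. Genes that the gate does not fix, or fixes only in part, differed there. Klf2, a factor of resting lymphocytes, was at 1235 and 355 CPM, Cd44, which marks activation, at 33.5 and 57.9, Cd8b1 at 983 and 558, and 7 T cell markers summed to 5664 and 3862 CPM. The 5 NK cell markers summed to 981 and 678 CPM, mostly Nkg7 (882 and 593). Eomes was at 52.6 and 39.8 CPM, beside 55.7 and 64.6 in Pdcd1>0 cells. Mki67 or Top2a was present in 9.43% and 4.63% of naive-state cells. The gate name describes its markers and does not show that each cell was naive. S1pr1, like Klf2 a naive T cell marker that the gate does not use, went the other way from Klf2, at 124 and 185 CPM. The CD4 gate uses no naive marker, and 6 naive markers summed to 2037 and 1102 CPM in it. Among them Klf2 was at 933 and 210 CPM and Lef1 at 315 and 155, with S1pr1 again the other way (141 and 187). Cd44 was at 71.8 and 175 CPM in CD4 cells. The libraries also differed in what surrounds the T cell RNA. Summed CPM of 8 dendritic cell markers was 657, 1183, 1147 and 2103 in the 4 untreated classes, in the order naive-state, Pdcd1>0, CD4 and Foxp3>0, and 230, 139, 514 and 1179 in the treated ones. Clec9a and Xcr1 were at 0 in treated naive-state cells, and Clec9a also in treated Pdcd1>0 and CD4 and untreated Foxp3>0 cells. The 6 macrophage markers summed to 29.3 to 43.3 CPM untreated and 11.3 to 13.6 CPM treated, with Adgre1 at 0 in treated naive-state and CD4 cells. Haemoglobin transcripts stood at 1298 CPM in untreated and 0.822 CPM in treated CD4 cells. Stromal or tumour markers, 5 in the table, summed to 5.84 and 77.9 CPM in Pdcd1>0 cells and 173 and 234 CPM in CD4 cells, higher in the treated library, and to 142 and 3.95 CPM in Foxp3>0 cells and 38.3 and 5.54 CPM in naive-state cells, lower in it. Malat1, an RNA kept in the nucleus, was at 6467 and 13400 CPM in Pdcd1>0 cells and differed less in the other gates (10880 and 13250 in naive-state cells). Untreated Pdcd1>0 cells were deeper than treated ones (medians of 11922 and 6890 UMIs) and more often had a UMI of the cycling genes Mki67 or Top2a (57.0% and 26.3%). The part of these differences in the results was not tested, apart from repeats without such cells that are given where they move a value.

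Bcl2l11 was higher in the treated library in each of the 4 gates (1.94-fold to 4.29-fold). Bcl2 was lower in 3 gates (2.43-fold to 3.78-fold) and within 1.5-fold in CD8 Pdcd1>0 cells. Mcl1 was higher in the treated library in each gate, by 1.27-fold to 1.88-fold, and Bcl2l1 was 1.93-fold to 2.34-fold higher in each gate but naive-state cells. Bak1 and Bid had ratios below 1 in each gate, but the intervals of Bak1 in CD4 cells and of Bid in CD4 and Foxp3>0 cells included 1. Each of the 8 members had at least 50 UMIs over both libraries in each gate.

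Differences of 1.5-fold or more were common among all genes. At least 1.5-fold higher were 3 of the 8 members in naive-state cells (Mcl1, Bcl2l11 and Pmaip1) and at least 1.5-fold lower were 3 (Bcl2, Bid and Bak1), where 25.1% and 27.0% of 9527 genes tested passed the same fold. For CD8 Pdcd1>0 cells the counts were 3 higher (Bcl2l1, Mcl1 and Bcl2l11) and 2 lower (Bid and Bak1), beside 30.0% and 22.1% of 10666 genes. CD4 cells had 4 higher (Bcl2l1, Bcl2a1b, Bcl2l11 and Pmaip1) and 1 lower (Bcl2), beside 22.9% and 18.8% of 8039 genes. Foxp3>0 cells had 2 higher (Bcl2l1 and Bcl2l11) and 2 lower (Bcl2 and Bak1), beside 17.3% and 12.5% of 8002 genes. The median log2 ratio of the 8 members was 0.00, -0.09, 0.51 and -0.06 in that order of gates, and that of all genes tested -0.06, 0.08, 0.01 and -0.01. Across the gates the members therefore did not move one way as a group. CD4 cells leaned to the higher side, with a median of 0.51 against 0.01, although Bcl2 was lower there. What follows is about which of them were high or low in which cells.

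**Figure D1:**
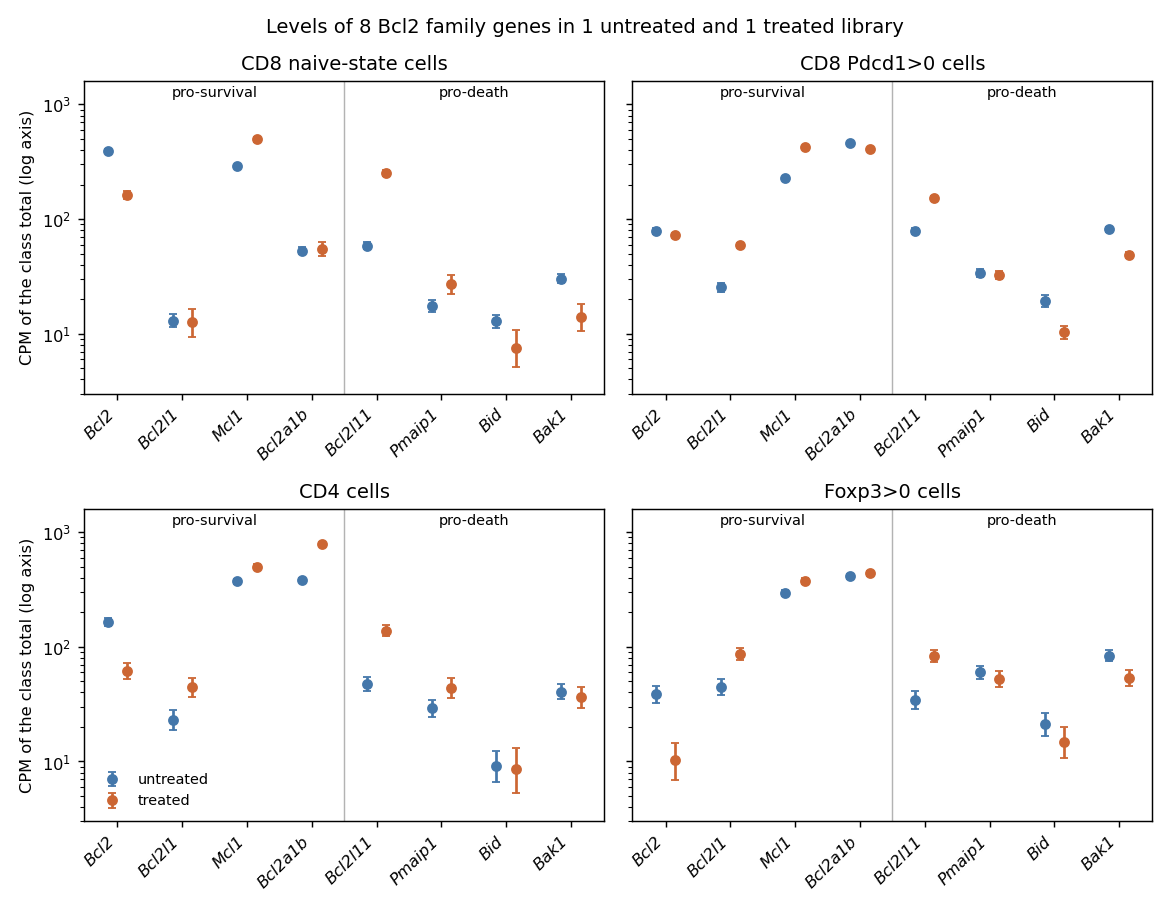
CPM of the class total (log axis) of the 8 members in the 4 gates, with pro-survival genes left and pro-death genes right of the line. Points are the 1 untreated and 1 treated library and bars are exact Poisson 95% intervals. In naive-state cells the treated Bcl2l11 point (252 CPM) lies above the treated Bcl2 point (163 CPM), whereas untreated Bcl2 (396.5 CPM) lies above untreated Bcl2l11 (58.9 CPM).

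Bcl2, the founding pro-survival gene, was at 396.5 CPM (387 to 406) in untreated CD8 naive-state cells, its highest level in any gate. The treated library had 163 CPM (151 to 176) there, 2.43-fold lower (2.24 to 2.64). CD4 cells had 165 CPM untreated and 61.6 CPM treated, 2.67-fold lower (2.24 to 3.21). Foxp3>0 cells were lowest in both libraries, at 38.6 CPM (142 UMIs) and 10.2 CPM (31 UMIs), 3.78-fold lower (2.55 to 5.77). Without cells holding macrophage or class II transcripts (139 untreated and 154 treated cells left) that gate had 114 and 21.4 CPM (5.32-fold lower), without cycling cells 65.4 and 12.2 CPM (5.375-fold lower), and as a mean over cells 69.0 and 14.5 CPM (4.77-fold lower). CD8 Pdcd1>0 cells differed little, with 79.0 and 72.4 CPM (log2 ratio -0.13, -0.23 to -0.02). Ordered by level, untreated CD4 and treated naive-state cells had overlapping intervals, as did the Pdcd1>0 cells of both libraries. By summed CPM, Bcl2 thus sat at one level in treated and untreated Pdcd1>0 cells within 1.5-fold, while the untreated cells of the other gates held more of it than the treated ones.

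The small ratio in Pdcd1>0 cells depended on which cells were kept and on how they were weighted. Without cells that had Mki67 or Top2a, Bcl2 was at 133 CPM untreated and 79.5 CPM treated (log2 ratio -0.75). Without cells holding macrophage or class II transcripts it was at 124 and 75.9 CPM (log2 ratio -0.71), over 437 untreated and 2684 treated cells. With every cell of the full gate given equal weight in a mean CPM, it was at 120 and 79.0 CPM (log2 ratio -0.60). In each of these repeats the treated level was close to that of the full gate and the untreated level was the one that differed.

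Bcl2l1 encodes BCL-XL, which T cells are known to induce after stimulation. In naive-state cells it was scarce in both libraries, at 13.0 CPM (11.4 to 14.8) and 12.6 CPM (9.35 to 16.6), and the intervals overlapped. Treated cells had more in the other gates: 25.4 and 59.3 CPM in Pdcd1>0 cells (2.34-fold, 2.09 to 2.62), 23.0 and 44.4 CPM in CD4 cells (1.93-fold, 1.46 to 2.56), and 44.6 and 86.2 CPM in Foxp3>0 cells (1.935-fold, 1.59 to 2.37). With stricter gates the CD4 difference was no longer past 1.5-fold (log2 ratio 0.35). Foxp3>0 cells had the highest Bcl2l1 level in each library, where Bcl2 was lowest. Whether the naive-state ratio differs from the others could not be tested with 1 library per group.

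Mcl1, whose protein is short-lived and binds both BIM and BAK, was abundant in each gate. It was at 290 and 495.5 CPM in naive-state cells (1.71-fold higher, 1.62 to 1.80) and at 226 and 425 CPM in Pdcd1>0 cells (1.88-fold higher, 1.81 to 1.95). CD4 cells had 374 and 500.0 CPM (1.34-fold) and Foxp3>0 cells 294 and 373 CPM (1.27-fold), both under 1.5-fold. The log2 ratio stayed at 0.66 to 0.83 in naive-state cells and 0.72 to 0.93 in Pdcd1>0 cells under 11 alternative settings. Treated CD8 cells of both gates were at levels (425 to 495.5 CPM) above any untreated gate.

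Bcl2a1b encodes A1, a pro-survival protein that T cell receptor and NF-kB signals are known to induce. It differed mainly by cell state: 53.1 CPM in naive-state and 464 CPM in Pdcd1>0 cells of the untreated library, 8.75-fold apart (8.17 to 9.38), and 54.9 and 405.5 CPM in the treated library, 7.385-fold apart (6.46 to 8.485). Between libraries it was within 1.5-fold in naive-state cells (1.035-fold), Pdcd1>0 cells (0.873-fold) and Foxp3>0 cells (414 and 436 CPM). CD4 cells stood apart, with 382 CPM untreated and 784 CPM treated, 2.05-fold higher (1.92 to 2.19). Naive and activation markers also differed between libraries in that gate, as given above. Their part in the CD4 ratios of this and other members was not tested. Bcl2a1b has near-identical copies in the genome, so how reads were split among them is uncertain. Summed over the copies, the level was 516 and 1074 CPM in CD4 cells (2.08-fold, 1.97 to 2.20) and 619 and 575 CPM in Pdcd1>0 cells (0.929-fold). Removing cells with macrophage or class II transcripts lowered the untreated naive-state level to 30.9 CPM, against 51.5 CPM in the treated library (log2 ratio 0.74). Macrophages in the same libraries held 489 and 223.5 CPM of Bcl2a1b.

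Bcl2l11 encodes BIM, the BH3-only protein that can bind each pro-survival member. Naive-state cells had 58.9 CPM untreated (55.3 to 62.6) and 252 CPM treated (237 to 268.5), 4.29-fold higher (3.93 to 4.68). The treated naive-state level was the highest of any gate, whereas in the untreated library the highest was 79.1 CPM in Pdcd1>0 cells. Treated Pdcd1>0 cells had 153 CPM (1.94-fold, 1.82 to 2.07). CD4 cells had 47.3 and 138.5 CPM (2.93-fold, 2.46 to 3.495), and Foxp3>0 cells 34.2 and 83.3 CPM (2.43-fold, 1.96 to 3.035). The order of the CD8 gates thus turned: Pdcd1>0 cells had 1.34-fold more than naive-state cells when untreated (1.24 to 1.46) and 0.6075-fold as much when treated (0.566 to 0.652). The difference between libraries was past 1.5-fold in 11 of 11 alternative settings in each of the 4 gates, with log2 ratios of 2.03 to 2.16, 0.77 to 1.01, 1.21 to 1.67 and 1.05 to 1.93 in the same order of gates.

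Pmaip1 encodes NOXA, a BH3-only protein that pairs with MCL-1 and A1. Its level was 17.5 and 27.0 CPM in naive-state cells (1.54-fold, 1.225 to 1.93) and 29.0 and 44.0 CPM in CD4 cells (1.52-fold, 1.16 to 1.97). Both ratios lay just past 1.5-fold and passed it in 6 and 4 of 11 alternatives. Pdcd1>0 cells (33.8 and 32.6 CPM) and Foxp3>0 cells (60.1 and 52.7 CPM) had overlapping intervals. Without cells holding macrophage or class II transcripts, Pmaip1 was at 15.7 and 45.6 CPM in CD4 cells (log2 ratio 1.54) and at 49.9 and 76.2 CPM in Foxp3>0 cells (log2 ratio 0.61). Macrophages held more of it than any T cell gate, at 126 and 78.8 CPM.

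Bid, which links death receptors to mitochondria once caspase-8 has cut its protein, was the least abundant pro-death member in each gate and library. It was at 12.8 CPM (224 UMIs) and 7.56 CPM (30 UMIs) in naive-state cells, 1.70-fold lower in the treated library (1.16 to 2.58), and at 19.4 and 10.3 CPM in Pdcd1>0 cells, 1.88-fold lower (1.59 to 2.24). CD4 cells (9.14 and 8.63 CPM) and Foxp3>0 cells (21.2 and 14.8 CPM) had overlapping intervals. Without cells holding macrophage or class II transcripts, Foxp3>0 cells had 9.36 CPM of Bid in each library. In the annotation GENCODE M21, Bid overlaps Bcl2l13 on the opposite strand, and whether the counting used strand is not given in the sources used here. Bcl2l13 itself was higher in the treated library, at 12.4 and 19.7 CPM in naive-state cells and 14.2 and 20.2 CPM in Pdcd1>0 cells.

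Bak1 encodes BAK, an effector that opens the mitochondrial membrane. It was at 30.3 and 14.1 CPM in naive-state cells, 2.15-fold lower in the treated library (1.63 to 2.88), at 81.5 and 48.4 CPM in Pdcd1>0 cells, 1.69-fold lower (1.56 to 1.83), and at 83.7 and 53.6 CPM in Foxp3>0 cells, 1.56-fold lower (1.29 to 1.90). CD4 cells had 40.6 and 36.2 CPM, with overlapping intervals. The Foxp3>0 ratio was under 1.5-fold when gates were read at 2000 UMIs per cell (log2 ratio -0.32). Within each library, Pdcd1>0 cells had more Bak1 than naive-state cells, by 2.69-fold untreated (2.43 to 2.99) and 3.43-fold treated (2.62 to 4.57). Bak1 overlaps Ggnbp1 in the same annotation, and Ggnbp1 had at most 22 UMIs in any of these gates and libraries.

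**Figure D2:**
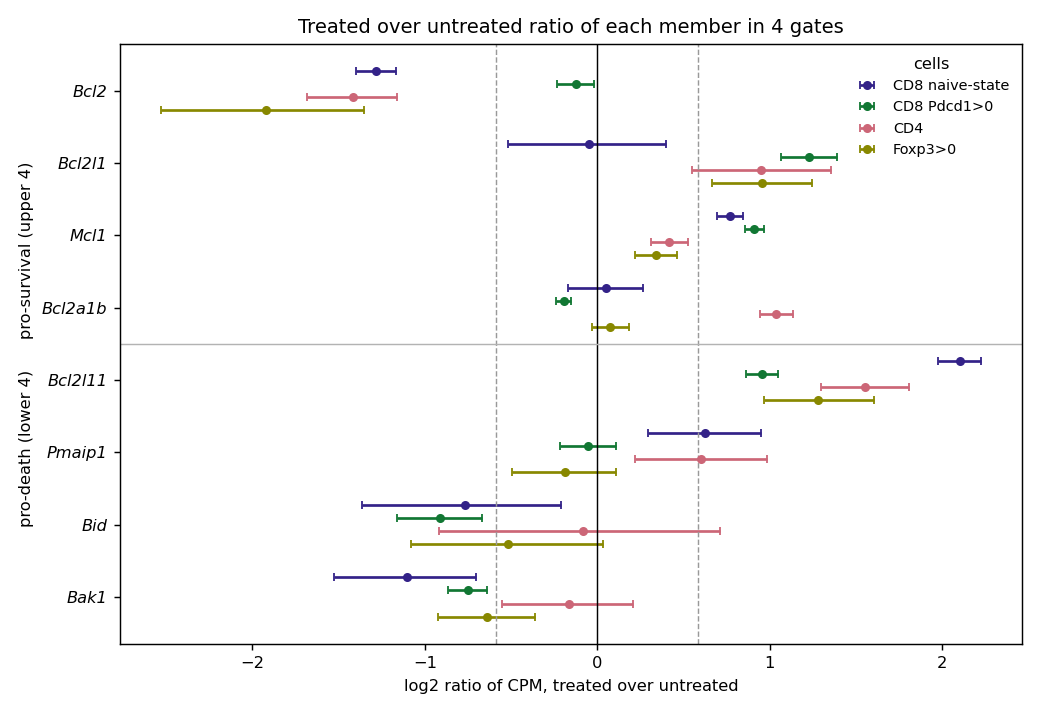
Log2 ratio of CPM, treated over untreated, for each member in the 4 gates, with exact conditional 95% intervals. Dashed lines mark 1.5-fold. The 4 Bcl2l11 points lie between 0.96 and 2.10, and the Bcl2 points of naive-state, CD4 and Foxp3>0 cells between -1.92 and -1.28.

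The members were then set against each other within each library, a comparison that does not depend on library scaling. The 4 pro-survival genes had 6.30 summed UMIs per pro-death UMI in untreated naive-state cells and 2.41 in treated ones, 2.61-fold lower (2.41 to 2.84). The pro-survival sum there was nearly level (753 and 726 CPM), with Bcl2 lower and Mcl1 higher. The pro-death sum was 119 and 301 CPM, and Bcl2l11 made up 49.3% of its UMIs untreated and 83.9% treated. Mcl1 went from 38.55% to 68.25% of pro-survival UMIs and Bcl2 from 52.7% to 22.45%.

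The other gates differed far less in this sum. Pdcd1>0 cells had 3.72 pro-survival UMIs per pro-death UMI untreated and 3.935 treated (log2 ratio 0.08, 0.01 to 0.15). CD4 cells had 7.49 and 6.12 (log2 ratio -0.29, -0.48 to -0.11), and Foxp3>0 cells 3.97 and 4.43 (log2 ratio 0.16, -0.02 to 0.33). The sign was not stable under other cell choices in Pdcd1>0 cells (-0.10 without cycling cells) or in Foxp3>0 cells (-0.35 without cells holding macrophage or class II transcripts). Macrophages, outside the T cell gates, had 4.08 and 3.46, and stromal cells 1.69 and 1.375. Bcl2l11 was the member with the highest ratio in macrophages (39.5 and 159 CPM, 4.03-fold), where 24.0% of genes tested were at least 1.5-fold higher and 14.7% lower. In stromal cells it was at 39.1 and 70.0 CPM (1.79-fold), beside 32.7% of genes higher and 10.6% lower. The sum is led by the abundant Mcl1, Bcl2 and Bcl2a1b, so it says little about Bid or Bcl2l1.

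Bcl2 against Bcl2l11 alone showed a larger difference, but the pair was not among the planned comparisons. In naive-state, CD4 and Foxp3>0 cells Bcl2 had the lowest pro-survival and Bcl2l11 the highest pro-death ratio. A difference larger than that of the sums therefore follows there from the choice of pair, and the cell shares below use the same pair. Untreated naive-state cells had 6.74 Bcl2 UMIs per Bcl2l11 UMI (6.31 to 7.20), and treated ones 0.646 (0.584 to 0.714). CD4 cells had 3.49 and 0.445, Foxp3>0 cells 1.13 and 0.1225, and Pdcd1>0 cells 0.999 and 0.472. In the untreated library Bcl2 UMIs outnumbered Bcl2l11 UMIs in naive-state and CD4 cells, and in the treated library Bcl2l11 outnumbered Bcl2 in each gate.

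Counting cells instead of molecules gave a like picture for this pair, except for Bcl2 in Pdcd1>0 cells. Each cell was thinned to 2000 UMIs so that depth was equal, which left out 2 to 30 shallower cells per gate and library. Of untreated naive-state cells, 39.8% (37.9 to 41.7) had a UMI of Bcl2 but not Bcl2l11, and 16.6% (13.9 to 19.7) of treated ones. Cells with Bcl2l11 but not Bcl2 made up 5.34% and 25.0%, cells with both 5.26% and 9.43%, and cells with neither 49.6% and 48.95%. Cells with Bcl2l11 only made up 11.99% and 22.35% of Pdcd1>0, 6.89% and 18.6% of CD4 and 8.03% and 14.5% of Foxp3>0 cells. Cells with Bcl2 only made up 14.85% and 9.19%, 21.6% and 9.42%, and 7.19% and 1.72% in the same order. Cells with any Bcl2 UMI made up 18.2% (15.9 to 20.6) and 12.7% (11.6 to 14.0) of Pdcd1>0 cells, where summed CPM was within 1.5-fold. Thinned to 4000 UMIs instead, these shares were 27.9% and 23.4%. Unthinned, 71.5% and 48.7% of naive-state cells had a Bcl2 UMI and 26.4% and 67.5% a Bcl2l11 UMI.

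These shares need a background, because free RNA gives UMIs to cells that do not express a gene. Bcl2a1b, a gene of blood cells, was present in 0.763% of 131 untreated and 3.51% of 57 treated stromal cells after thinning, and Pmaip1 in 0 of each, which allows up to 2.29% and 5.26% when 3 counts are taken as the limit (Clopper-Pearson upper limits of 2.78% and 6.27%). Stromal cells had medians of 47161.5 and 42320 UMIs before thinning, and naive-state cells 5871 and 5683.5. Thinning thus cut stromal cells more, and their shares may lie below the background of the T cell gates, which was not tested. Naive-state cells had a Bcl2a1b UMI in 6.02% (5.14 to 6.99) and 8.23% (6.26 to 10.6) of cells. For Bcl2, macrophages had a UMI in 4.29% of 210 untreated and 1.89% of 159 treated cells, and the interval of the treated Foxp3>0 share (2.21%, 1.02 to 4.16) overlaps both of theirs (1.98 to 7.98 and 0.391 to 5.415). That share was therefore not distinguishable from this level at this depth. Stromal cells had a Bcl2 UMI in 3.05% and 10.5% of cells.

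**Figure D3:**
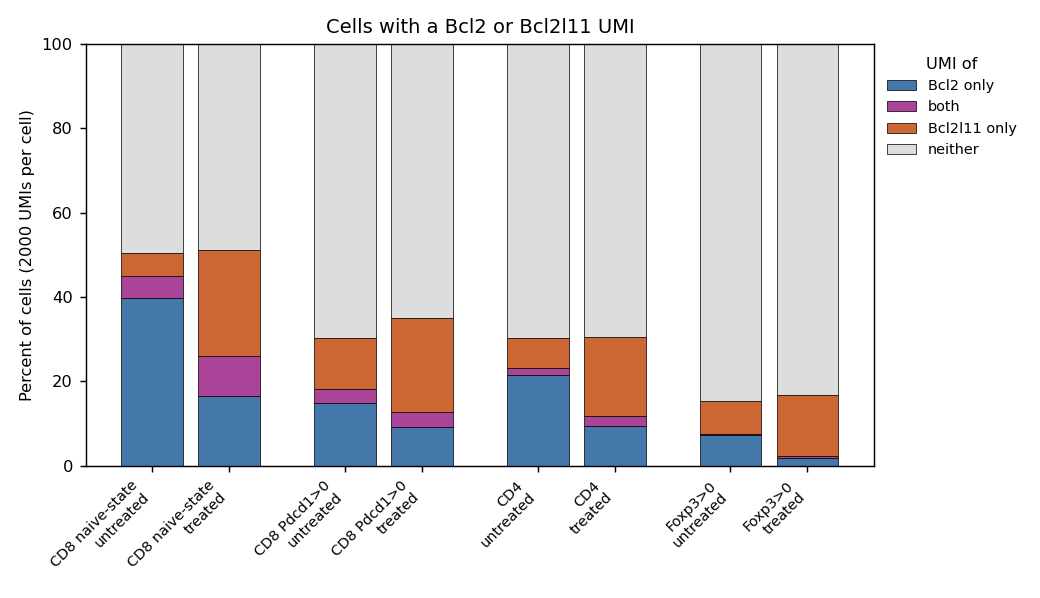
Percent of cells, each thinned to 2000 UMIs, with a UMI of Bcl2 only, of both genes, of Bcl2l11 only or of neither, by gate and library. In naive-state cells the Bcl2 only segment is 39.8% untreated and 16.6% treated, and the Bcl2l11 only segment 5.34% and 25.0%, while the grey segment is 49.6% and 48.95%.

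Within a library the members also separated the CD8 states. From untreated naive-state to Pdcd1>0 cells Bcl2 was 5.02-fold lower (4.72 to 5.34), and in the treated library 2.25-fold lower (2.05 to 2.47). Bcl2l1 was 1.95-fold higher in Pdcd1>0 cells untreated (1.65 to 2.31) and 4.71-fold treated (3.55 to 6.38). Mcl1 was 0.780-fold and 0.858-fold of the naive-state level. CD8 cells that met neither gate lay between the others for Bcl2 when untreated (251 CPM) and treated (98.0 CPM), and had 70.0 and 139 CPM of Bcl2l11.

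Levels were also read along the number of Pdcd1 UMIs per CD8 cell at 2000 UMIs, with bins chosen after values were seen. Bcl2 was at 305 CPM in untreated cells with no Pdcd1 UMI left at that depth. It was at 79.6, 66.2 and 75.9 CPM with 1, 2 and 3 or more, so the step lay between 0 and 1. Treated cells had 98.7, 71.4, 73.1 and 59.9 CPM. The 0 bin (3121 untreated and 2530 treated cells) also holds cells that lost their Pdcd1 UMIs in thinning. At full depth, CD8 cells without Pdcd1 numbered 2663 and 670 in the naive-state gate and 422 and 949 in neither gate. The 0 bin is thus a different mix in each library, and its part in these levels was not tested. Bcl2l11 in treated cells was between 146 and 171.5 CPM in the 4 bins, above the 62.9 to 102 CPM of untreated cells. Mcl1 was likewise higher in treated cells in each bin, at 412.5 to 456 CPM against 219 to 266 CPM. Bcl2a1b was higher with more Pdcd1 UMIs in both libraries, from 178 to 541 CPM untreated and from 306 to 539 CPM treated.

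**Figure D4:**
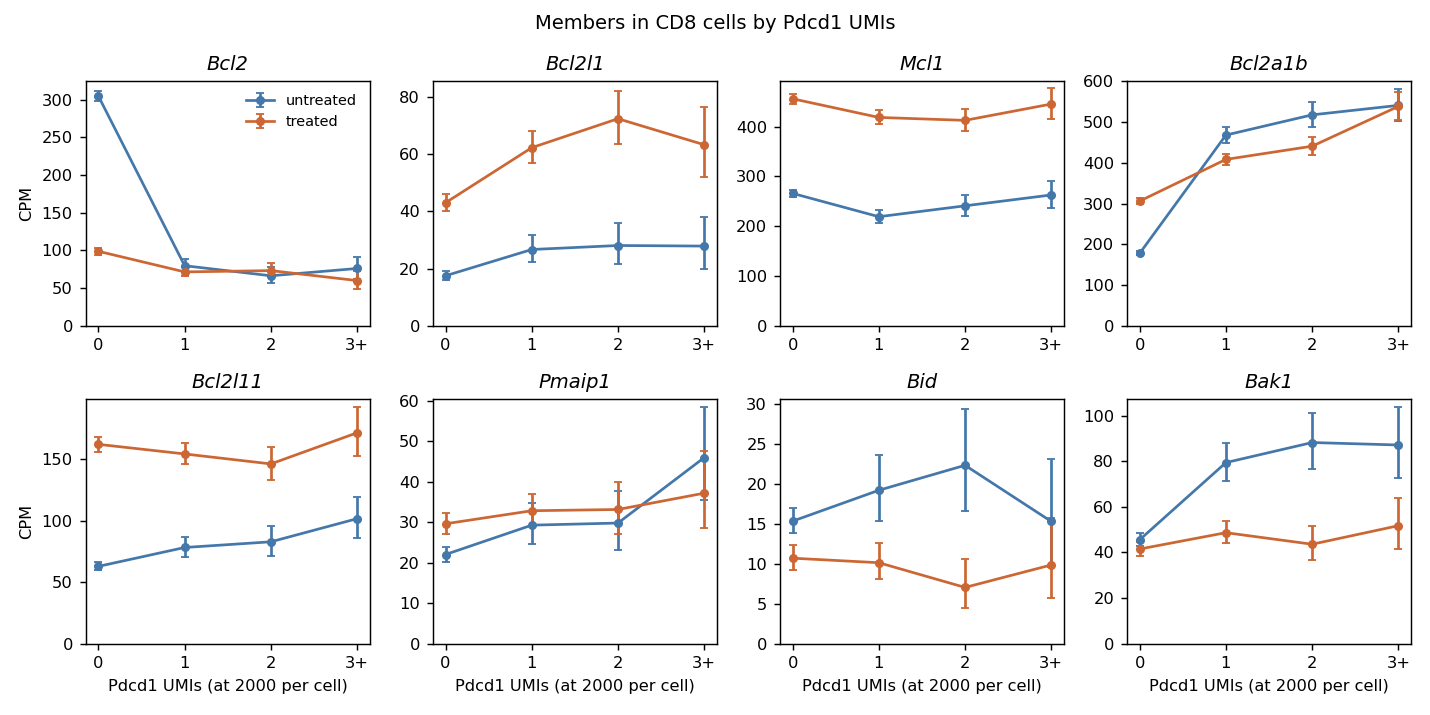
CPM of each member in CD8 cells by number of Pdcd1 UMIs at 2000 UMIs per cell, for the untreated and treated library, with exact Poisson 95% intervals. Untreated Bcl2 steps from 305 to 79.6 CPM between 0 and 1 UMI, and the treated Mcl1 and Bcl2l11 lines lie above the untreated ones in each of the 4 bins. The 0 bin includes cells whose Pdcd1 UMIs were lost in thinning.

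Subsets of the Pdcd1>0 gate were read as well. Cells that kept Tcf7, a factor of progenitor-like cells (213 untreated and 78 treated), had 122 and 93.7 CPM of Bcl2 and 80.0 and 210 CPM of Bcl2l11 (2.63-fold, 2.13 to 3.23). Cells with Tox and no Tcf7 UMI (525 and 2153) had 58.5 and 75.8 CPM of Bcl2 and 80.2 and 148 CPM of Bcl2l11 (1.84-fold, 1.70 to 2.01). The Bcl2 log2 ratio was 0.38 in the Tox subset and -0.38 in the Tcf7 subset, both within 1.5-fold. Cells with Mki67 or Top2a made up 69.1% and 27.3% of the Tox subset and 46.5% and 16.7% of the Tcf7 subset, and their part in these ratios was not tested.

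Other family members were read from wider lists, all chosen with earlier results of these data known. Each list count below stands beside the share of all genes tested that passed 1.5-fold, 25.1%, 30.0%, 22.9% and 17.3% higher and 27.0%, 22.1%, 18.8% and 12.5% lower in the 4 gates. A list whose share is near these is no result about that list. Of 2 further effectors, Bax and Bok, only Bax had enough UMIs. It was lower in both CD8 gates, at 133 and 68.5 CPM in naive-state cells (1.935-fold) and 211 and 132 CPM in Pdcd1>0 cells (1.60-fold). In CD4 cells (130 and 107 CPM) and Foxp3>0 cells (191 and 145.5 CPM) it was within 1.5-fold. The list of 11 BH3-only and related genes had 7, 10, 6 and 6 members with enough UMIs in the 4 gates, of which 1, 2, 1 and 1 were at least 1.5-fold higher and 4, 4, 4 and 2 lower. Their median log2 ratios were -0.63, -0.26, -0.89 and -0.38. Bbc3, which encodes the BH3-only protein PUMA, was at 63.0 and 40.8, 18.85 and 10.3, 33.45 and 14.8, and 22.6 and 17.8 CPM. Bad was at 23.7 and 17.9, 29.9 and 29.1, 35.0 and 23.0, and 48.4 and 30.3 CPM.

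Bmf, another BH3-only gene, was rare in the untreated library and less so in treated CD8 cells. Pdcd1>0 cells had 16 UMIs untreated and 308 treated, or 1.02 and 12.9 CPM (12.7-fold, 7.68 to 22.4), the highest ratio of the 61 list genes tested there. Naive-state cells had 19 and 16 UMIs, or 1.09 and 4.03 CPM (3.70-fold, 1.78 to 7.60). CD4 cells had 1 and 8 UMIs (14.7-fold, 1.98 to 654), and Foxp3>0 cells 9 and 11 UMIs. Bcl2l14, a distant relative, was lowest in ratio in both CD8 gates, with 55 and 1 UMIs in naive-state cells (0.0799-fold, 0.00199 to 0.464) and 62 and 5 UMIs in Pdcd1>0 cells. Of 4 further pro-survival genes, 2, 3, 1 and 1 had enough UMIs, with 0, 1, 1 and 0 higher, 1, 1, 0 and 0 lower and medians of -0.88, 0.17, 1.14 and 0.26. Among the copies of A1, Bcl2a1a had 80 and 12 UMIs in Pdcd1>0 cells (10.1-fold lower) and 37 and 1 UMIs in Foxp3>0 cells, while Bcl2a1d was at 129 and 284 CPM in CD4 cells (2.21-fold, 1.97 to 2.47) and at 149 and 168 CPM in Pdcd1>0 cells.

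Downstream of the family, against the same shares of all genes (17.3% to 30.0% higher and 12.5% to 27.0% lower), 9 genes of the apoptosome and caspases had 2, 1, 2 and 1 members higher and 3, 3, 3 and 0 lower, with median log2 ratios of -0.38, -0.19, -0.26 and -0.23. Apaf1, the scaffold that activates caspase-9, was higher in each gate, from 5.27 and 21.4 CPM in naive-state to 44.3 and 79.0 CPM in Foxp3>0 cells. Of 6 inhibitors of apoptosis, 2, 2, 3 and 2 were higher and 1 in each gate lower, which was Birc5, a gene of dividing cells (171 and 41.1 CPM in Pdcd1>0 cells). Their medians were 0.46, 0.22, 0.56 and 0.30. Of 10 death receptor genes, 3, 3, 4 and 4 were higher and 4, 4, 2 and 3 lower, with medians of 0.165, -0.14, -0.06 and -0.21. Fadd, the adaptor of death receptors, was among the lowest ratios in naive-state (131 and 7 UMIs), CD4 (45 and 7 UMIs) and Foxp3>0 cells (47 and 10 UMIs). Bnip3, a relative that responds to low oxygen, was low as well in CD4 (23.0 and 6.57 CPM) and Foxp3>0 cells (51.1 and 16.45 CPM).

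Of 22 regulators of the family, with 21, 22, 21 and 20 tested, 12, 10, 13 and 9 were at least 1.5-fold higher and 3, 6, 0 and 2 lower, with medians of 0.80, 0.46, 0.86 and 0.49 on the log2 scale. All genes tested were higher in 25.1%, 30.0%, 22.9% and 17.3% of cases, and lower in 27.0%, 22.1%, 18.8% and 12.5%. Il7r, the receptor for interleukin 7, was at 268 and 182, 70.8 and 40.1, 417 and 333, and 383 and 307 CPM in the 4 gates, lower in each and past 1.5-fold in Pdcd1>0 cells. Il2ra, a chain of the interleukin 2 receptor, was at 1.43 and 8.565 CPM in naive-state cells (25 and 34 UMIs) and 196 and 572 CPM in Foxp3>0 cells (2.92-fold, 2.67 to 3.185). Il15ra, a chain of the interleukin 15 receptor, was at 12.5 and 30.6 CPM in Foxp3>0 cells, and 28.9 and 7.73 CPM in Pdcd1>0 cells. Foxo3, a FoxO factor, was at 5.01 and 17.8 CPM in Pdcd1>0 cells (3.56-fold, 2.79 to 4.58), and Foxo1, named after its values were seen, at 39.8 and 131 CPM there. Myb was at 18.3 and 92.7 CPM in naive-state cells (5.055-fold) and 6.24 and 30.4 CPM in CD4 cells (4.87-fold), and Bcl6, a repressor that directs follicular helper T cells, at 9.59 and 31.6 CPM in CD4 cells.

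Across the 8 points given by 4 gates and 2 libraries, genes were ranked by Pearson correlation of log2(CPM + 1) with each member, among 5015 genes. The points share cells' library and depth, so these are descriptions. The genes named were the best of 5015 over 8 points, a choice that by itself favours high correlations. Bcl2a1b was most like its copy Bcl2a1d (r = 0.99), followed by Chst2 and Nrp1. Bcl2l11 was most like Atad2 (0.98), Erf (0.96) and Topors (0.95), and Mcl1 most like Ski (0.99), Prkca (0.98) and Esyt2 (0.98). For Bcl2 these genes were Ctu2, Rab3ip and Evl (0.97, 0.96 and 0.95), for Bcl2l1 Dync1i2, Dazap2 and Ehmt2, and for Pmaip1 Oaz1, Grb2 and Srgn. A correlation takes no account of size, and Ctu2 ranged only from 18.4 to 25.8 CPM where Bcl2 ranged from 10.2 to 396.5 CPM. Bid was most like Gtf2f2, Dctpp1 and Phgdh, and Bak1 most like Ap2s1, Atpif1 and Atp5d (0.99 each). Among the members, Bid and Bak1 had r = 0.83, Mcl1 and Bcl2l11 0.68, Bcl2 and Bcl2l1 -0.89, and Mcl1 and Bid -0.85.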

How the data were processed

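Single-cell RNA was measured with a droplet kit that reads the 3' ends of transcripts, in 1 untreated and 1 treated library, per the labels. The submitters' processing notes name Cell Ranger and Seurat without versions, and a human build, GRCh38, for a table with mouse gene symbols. No gene coordinates are therefore taken from it. The authors deposited 1 table of natural log values, ln(1 + UMIs per 10000 UMIs of the cell), for 15121 genes and 17390 cells. Back-transformed and divided by the value of 1 UMI in the same cell, 38204229 of 38204229 nonzero entries came out whole within 0.01, and these UMIs were used throughout. Cells were assigned to libraries by the number in the cell name, which the labels give.

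A minimum of 200 genes and a maximum of 10% mitochondrial UMIs per cell removed 216 untreated and 358 treated cells. Scrublet's own threshold marked 0.033% and 0.013% of cells, too few to rely on, so a cut at the highest 5% of scores was set in each library. Scores equal to the cut were kept, and the 425 and 365 cells above it (4.67% and 4.73%) were removed. T cells were required to have RNA of a CD3 chain (Cd3d, Cd3e or Cd3g) or of Trac, and at most 2 UMIs over 6 macrophage genes. The naive-state gate used 4 marker genes, of which 1 is not reported here. UMIs were summed per gate and library. Levels carry exact Poisson intervals, ratios exact conditional binomial intervals, sums of members an exact conditional interval of the odds ratio, and shares Clopper-Pearson intervals. Genes with at least 50 UMIs over both libraries and a UMI in each whole library were counted against a fold of 1.5. No p-value was computed. The 1.5-fold limit describes size only. The calculation of ratios was tested on simulated counts.

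The 8 members and the 7 gene lists were chosen with earlier results of these data known. The genes named were the 8 members in the 4 gates, the 2 highest and 2 lowest list genes past 1.5-fold in each gate, and Bax, Bad, Bbc3, Bmf, Bcl2a1a, Bcl2a1d and Il7r. Apaf1, Birc5, Foxo1, Bcl2l13, Ggnbp1, Gm14005 and Malat1 were named after their values were seen, and so were the Il15ra values of Pdcd1>0 cells. Likeness took the 3 genes with the highest correlation among those with a mean of at least 20 CPM. Alternatives changed doublet removal, the cell filter, the removal of cells with macrophage transcripts, the gates, cycling cells, the scaling and the cells with shared barcodes. Scrublet was run through scanpy 1.11.5, intervals came from scipy 1.17.1, figures from matplotlib 3.10.9, and tables from pandas 2.3.3 and numpy 2.4.6 under Python 3.11.15.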

Additional observations from a re-analysis of the deposited data

Results flagged for a closer look

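Bcl2a1b differed in direction between gates. Its log2 ratio was 1.04 in CD4 cells (382 and 784 CPM) and -0.20 in CD8 Pdcd1>0 cells (464 and 405.5 CPM), and this difference between gates was not tested, since each group has 1 library. Dendritic markers summed to 1147 and 514 CPM in the CD4 gate and 1183 and 139 CPM in the Pdcd1>0 gate. Without cells holding macrophage or class II transcripts, the 2 log2 ratios were 1.08 and -0.10.

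Signal for members also appeared in cells outside the 4 T cell gates. Macrophages, cells without T cell transcripts and with at least 3 UMIs over 6 macrophage genes (240 untreated and 173 treated), had 39.5 and 159 CPM of Bcl2l11, 4.03-fold higher in the treated library (3.31 to 4.92). In this class 24.0% of genes tested were at least 1.5-fold higher. Stromal cells, which had collagen genes or Sparc and no Ptprc UMI (138 and 59), had 39.1 and 70.0 CPM of Bcl2l11 (1.79-fold, 1.49 to 2.15), 15.8 and 27.2 CPM of Bcl2 (1.715-fold, 1.27 to 2.31) and 18.5 and 29.6 CPM of Bid (1.60-fold, 1.20 to 2.12). Bcl2a1b was at 2.10 and 7.67 CPM there (15 and 22 UMIs, 3.645-fold, 1.81 to 7.55). In stromal cells 32.7% of genes tested were at least 1.5-fold higher and the median log2 ratio of all genes was 0.28.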

How the results depend on the processing

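No paired analysis was possible because each group has 1 library and no test was run. Under 11 alternatives, of which leaving out cells with a barcode in both libraries was chosen after seeing the data, no called value changed sign, and Bcl2l11 was past 1.5-fold in 11 of 11 in each gate, as was Bcl2 in naive-state, CD4 and Foxp3>0 cells. For the balance of pro-survival to pro-death UMIs, log2 ratios moved by more than the counting interval as follows. Strict removal of cells with macrophage or class II transcripts gave -0.0088 in Pdcd1>0 (main value 0.08), -0.55 in CD4 (-0.29) and -0.35 in Foxp3>0 cells (0.16). Leaving out cycling cells gave -0.10 in Pdcd1>0 and -0.50 in CD4 cells, stricter gates -0.11 in CD4 cells, and gates read at 2000 UMIs -1.21 in naive-state (-1.39) and -0.073 in Foxp3>0 cells. The cause was not tested. At 2-fold in place of 1.5-fold, members counted as higher were 1 in naive-state, 1 in Pdcd1>0, 2 in CD4 and 1 in Foxp3>0 cells. Of all genes tested 13.0%, 16.7%, 10.3% and 5.85% were 2-fold higher. In naive-state cells Bcl2 (2.43-fold) and Bak1 (2.145-fold) were at least 2-fold lower, beside 13.4% of all genes. In CD4 cells Bcl2 was (2.67-fold), beside 7.5%. The count of members lower was 0 in Pdcd1>0 and 1 in Foxp3>0 cells, beside 1177 of 10666 and 283 of 8002 genes. Stricter gates left 2 higher in CD4 cells. Of 640 other values, 420 kept within their counting interval and 220 moved. The median of all genes moved by over 0.1 on the log2 scale, among the settings for which it was computed, only in CD4 cells without ribosomal and mitochondrial genes in the total (from 0.01 to -0.11). Bid rests on as few as 21 UMIs, which limits its ratios.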

Other observations

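Gm14005, called Morrbid in the RefSeq table, is a long non-coding RNA annotated beside Bcl2l11 on chromosome 2 and is known as a regulator of that gene in myeloid cells. It was looked up after the values of Bcl2l11 were seen. It had 28 and 5 UMIs in naive-state cells (1.61 and 1.26 CPM, intervals overlapping), 95 and 37 in CD8 Pdcd1>0 cells (6.03 and 1.545 CPM, 3.90-fold lower in the treated library, 2.64 to 5.87), 34 and 8 in CD4 cells (2.31-fold lower, 1.05 to 5.77) and 54 and 22 in Foxp3>0 cells (2.03-fold lower, 1.21 to 3.495). Macrophages had 63 and 15 UMIs (2.13-fold lower, 1.20 to 4.03) and stromal cells 218 and 46 (1.91-fold lower, 1.38 to 2.68). Bcl2l11 was higher in the treated library in each of these classes. Whether the levels of the 2 genes are linked here was not tested. In naive-state cells the interval of the Gm14005 ratio was wide (0.237-fold to 2.06-fold). Gm14005 was under the minimum of 50 UMIs over both libraries in naive-state and CD4 cells. Of all genes tested, 22.1% in Pdcd1>0, 18.8% in CD4, 12.5% in Foxp3>0, 14.7% in macrophage and 10.6% in stromal cells were at least 1.5-fold lower.

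Macrophages differed from the T cell gates in other members. Bcl2a1b was at 489 and 223.5 CPM (2.19-fold lower, 1.97 to 2.43), Pmaip1 at 126 and 78.8 CPM (1.60-fold lower, 1.33 to 1.93), and Mcl1 at 590 and 863 CPM (1.46-fold higher, 1.37 to 1.56). Bcl2 was low in both libraries, at 12.5 and 12.3 CPM. In this class 14.7% of genes tested were at least 1.5-fold lower.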
